A study of Homo sapiens with 6 samples.

Results

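The genes described here code for the molecular chaperones of the cytosol and the mitochondria, their co-chaperones and the heat shock transcription factors, in human fibroblasts arrested in quiescence, from which cells can return to the cell cycle, and in young control cells. They were chosen by a rule on names, which was set with earlier results of these data known. It took protein-coding genes of the deposited count table whose symbols belong to 8 families. HSPA5, DNAJB9, DNAJB11 and DNAJC3 of the endoplasmic reticulum were left out. The rule gave 87 of the 60675 genes in the table. They were 14 HSP70 and HSP110 genes, 2 HSP90 genes, 42 J-domain genes, 9 small heat shock proteins, 2 genes of the mitochondrial chaperonin, 10 of the CCT/TRiC chaperonin, 6 BAG nucleotide exchange factors and 2 heat shock factors. The family names are wider than the cytosol and mitochondria, since 9 of the genes, such as HSPA13 and DNAJC10, code for proteins usually placed in the endoplasmic reticulum or its membrane.

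RNA-seq read counts were deposited for 6 libraries of MRC-5 cells, a long-used fibroblast line from human fetal lung that ceases to divide after a limited number of passages. Quiescent cells (3 libraries) had been arrested by contact inhibition for 9 days, and young cells (3 libraries) were the unperturbed control. Both groups were at population doubling 32, and no allele or drug is named for either. The young libraries were reused from an earlier series, so the set of libraries and the growth state cannot be told apart in what follows. No label states whether replicate libraries were separate cultures, so a p-value here measures the spread among libraries, which could be technical.

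Total counts ranged from 18661639 to 22546237 in quiescent libraries and from 26860981 to 29433764 in young libraries, here called 1.0, 1.1 and 1.2. At this depth 3 reads correspond to 0.108 to 0.151 CPM (counts per unit of library total, with TMM factors for differences in composition). Pearson's r of log2 CPM across genes, which are not independent replicates, was 0.9949 to 0.9957 within groups and 0.9494 to 0.9539 between them. The 10 fibroblast markers were all abundant, with a summed level of 14800 to 15200 CPM in quiescent and 25200 to 25800 CPM in young libraries. Of 6 epithelial markers KRT5 and SFTPC had no read and the sum was 11.9 to 13.4 CPM in quiescent and 6.03 to 8.04 CPM in young libraries. Endothelial markers summed to 94.7 to 96.9 CPM in quiescent and 75.6 to 86.4 CPM in young libraries, nearly all of it TEK. Leukocyte markers summed to 2.37 to 3.38 CPM in quiescent and 0.905 to 1.37 CPM in young libraries, with CD3E at 0. Of 10 transcripts induced by handling and stress, 2 rose and 7 fell, where 34.8% of all tested genes rose and 36.3% fell. JUN and DDIT3 rose, by 0.63 ± 0.04 and 0.35 ± 0.05 in log2. The 7 include the early growth response gene EGR1, whose mean was 377 CPM in quiescent and 1230 CPM in young cells. Quiescent library 1 stood apart from libraries 2 and 3 in FOSB (141 against 62.4 and 62.3 CPM) and FOS (481 against 357 and 357 CPM). The summed level of the 10 was 1490 to 1890 CPM in quiescent and 3160 to 3280 CPM in young libraries. The part of these differences in the chaperone results was not tested.

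Chaperones bind proteins that are not yet, or no longer, folded. HSP70 proteins hold exposed hydrophobic stretches in a cycle of ATP hydrolysis that J-domain proteins start and that HSP110 and BAG proteins reset by exchanging the nucleotide, and HSP90 takes over clients such as kinases and steroid receptors. Actin and tubulin fold inside the CCT/TRiC ring, proteins imported into mitochondria fold in the HSP60 chamber closed by its HSP10 lid, and small heat shock proteins hold unfolded chains without using ATP. When unfolded protein accumulates, the factor HSF1 binds heat shock elements, inverted repeats of GAA, in the promoters of many of these genes.

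The sequences below are shown because they hold the full heat shock element that the members' promoters were searched for. RefSeq promoters on GRCh38.p14, running from 250 bases before to 50 bases after each annotated start, were available for 75 of the 87 members. The element was spelled as the units GAA, TTC and GAA, or TTC, GAA and TTC, with NN (any 2 bases) between neighbouring units. Each spelling reads as the other on the opposite strand, so that both strands were covered. Capitals mark the element, and where 2 elements overlap the capitals cover both.
DNAJA1, chr9:33025268-33025297, plus strand: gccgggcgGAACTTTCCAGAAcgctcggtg
DNAJB6, chr7:157336849-157336909, plus strand: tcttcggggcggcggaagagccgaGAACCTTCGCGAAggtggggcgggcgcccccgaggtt
HSP90AA1, chr14:102087111-102087140, minus strand: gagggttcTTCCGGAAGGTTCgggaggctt
HSP90AB1, chr6:44247768-44247852, plus strand: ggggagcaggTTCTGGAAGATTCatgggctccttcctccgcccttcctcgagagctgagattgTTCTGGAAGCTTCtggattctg
HSPA6, chr1:161524442-161524502, plus strand: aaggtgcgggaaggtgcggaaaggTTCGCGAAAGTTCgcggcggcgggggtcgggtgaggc
HSPA8, chr11:123062170-123062199, minus strand: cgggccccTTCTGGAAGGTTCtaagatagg
HSPD1, chr2:197500061-197500090, minus strand: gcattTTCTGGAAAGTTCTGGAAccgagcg

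These 7 members were 9.33% of the 75 with a promoter, and the same letters stood in the promoters of 166 of all 27305 genes (0.608%). The shorter element, GAA and TTC in either order with NN between them, which every full element contains, stood in 27 members (36.0%) and in 16.2% of all genes. HSPA8, HSP90AB1 and HSPD1 held 2 full elements each. Counting the annotated start as position 0, the full elements began between position -245 in HSPD1 and position 3 in DNAJA1. HSPD1 and HSPE1 lie head to head on chromosome 2, and the element of HSPD1 was found upstream of its downstream RefSeq start, where both genes have exons. A match is a description of the letters in these windows and not a measured binding site.

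Chaperone transcripts were lower in quiescent cells more often than higher. Of the 87 members, 73 were abundant enough to be tested, and with the quasi-likelihood test of edgeR, Benjamini-Hochberg adjusted over all 15568 genes tested, 36 fell and 20 rose at adjusted p under 0.05, while 17 did not pass. The background was high: 71.1% of all tested genes passed, 36.3% lower and 34.8% higher in quiescent cells, against 76.7% of the tested members, 49.3% lower and 27.4% higher. DNAJC5B and HSPB3, both counted as lower, passed the filter on low counts only through the young libraries, and without them 34 of 71 fell and 20 rose. The median log2 fold change, quiescent over young, was -0.20 over the tested members and 0.00179 over all tested genes. The members' median was -0.103 without young library 1.2, -0.132 without quiescent library 2 and -0.118 with a stricter filter on low counts. Changes were small. Of members that did not depend on the young libraries to be tested, CCT6B alone passed with a change of at least 2-fold, where 17.3% of all tested genes did. In 56 of the 73 members (76.7%) the groups' values did not overlap, and over all tested genes this held for 36.4% with quiescent higher and 37.1% with quiescent lower. In bulk RNA, fewer cells with a transcript and less of it per cell cannot be told apart. Scaling by library size alone moved the median of all tested genes to 0.18 and that of the members to -0.02, with 31 members higher and 27 lower.

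**Figure D1:**
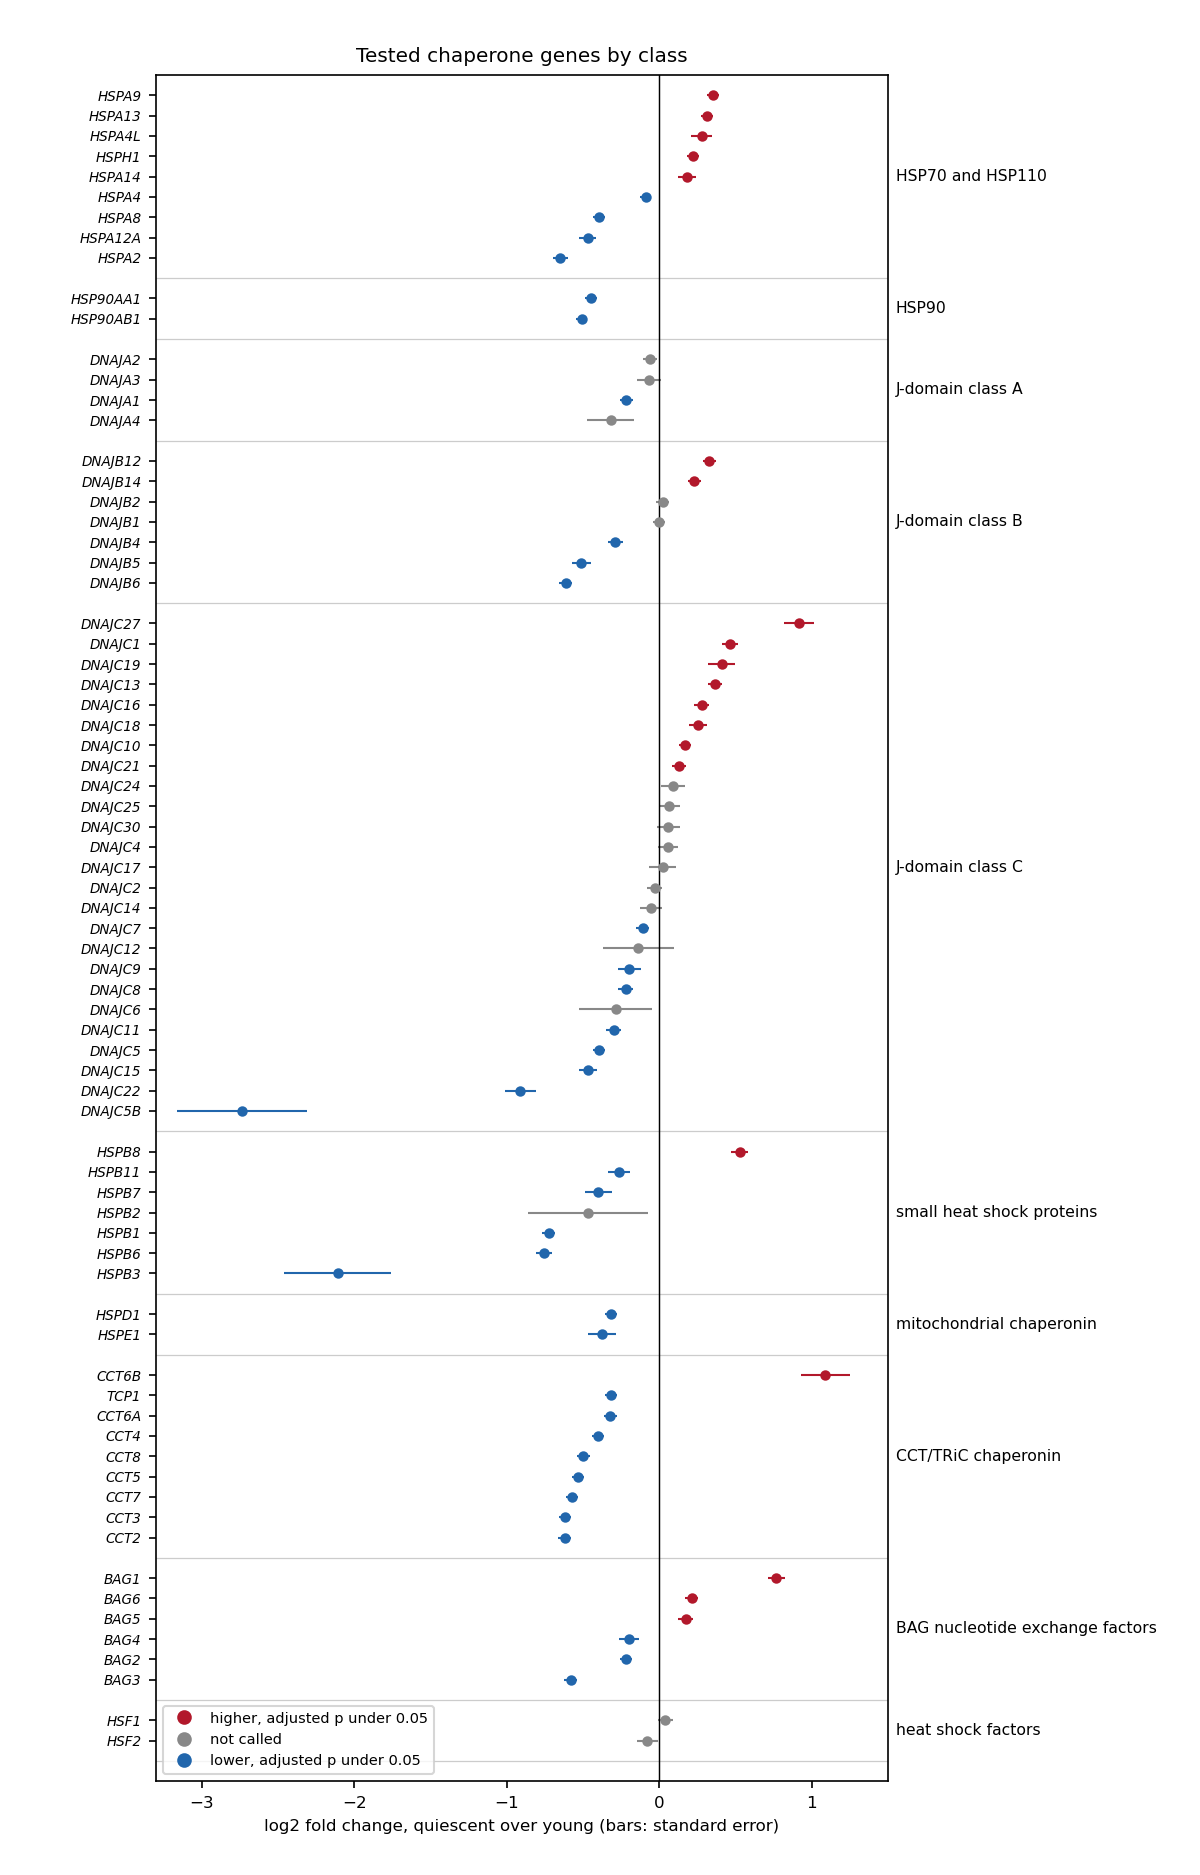
Log2 fold change, quiescent over young, of the 73 tested chaperone genes (rows, ordered within their class), with its standard error as a bar and the call by colour. The 8 ring subunits of CCT/TRiC and both HSP90 genes lie left of 0, the HSP70 and BAG classes lie on both sides, and HSPB3 and DNAJC5B lie at the far left with wide errors.

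To compare classes, levels were put on a scale per length as RPKM (reads scaled by exon length and library total, computed from the counts) and summed. All 87 genes summed to 1840 ± 17.2 RPKM in quiescent and 2320 ± 57.0 RPKM in young cells (SD, n = 3 each). The small heat shock proteins differed most in proportion, at 164 ± 4.58 RPKM in quiescent and 258 ± 11.3 RPKM in young cells. Most of that sum came from HSPB1, at 113 RPKM in quiescent and 186 RPKM in young cells. HSPB6 came next, at 30.7 RPKM in quiescent and 51.8 RPKM in young cells. HSP90 summed to 363 ± 2.45 RPKM in quiescent and 508 ± 16.2 RPKM in young cells, and CCT/TRiC to 370 ± 2.36 RPKM in quiescent and 518 ± 19.4 RPKM in young cells. These 3 classes lay well apart between the groups, by more than the spread of their libraries. The HSP70 and HSP110 sum was closer, 418 ± 9.82 RPKM in quiescent and 474 ± 18.8 RPKM in young cells. HSPA8 alone had 231 RPKM in quiescent and 304 RPKM in young cells, while 5 of the 9 tested genes of that class rose. By merged exons a BAG sum is likewise led by BAG3, at 27.3 RPKM in quiescent and 40.9 RPKM in young cells, while 3 of 6 BAG genes rose. By principal transcript BAG1 stood above BAG3 in quiescent cells, at 35.6 against 29.2 RPKM. In young cells it stood below, at 20.9 against 43.7 RPKM. A lower sum thus does not mean that most genes of a class fell. J-domain class C summed to 199 ± 0.440 RPKM in quiescent and 199 ± 4.18 RPKM in young cells, and the heat shock factors to 21.7 ± 1.21 RPKM in quiescent and 21.6 ± 0.602 RPKM in young cells. In every class but these last 2 all quiescent sums lay below all young sums, with a p of 0.1 by the exact two-sided permutation test, the smallest that 3 against 3 samples can give, so none could pass 0.05. The p was 1.0 for class C and 0.9 for the heat shock factors. The log2 ratio of the sums, quiescent over young, was only -0.0549 in class B. It was -0.181 in HSP70 and HSP110, -0.186 in class A and -0.195 in BAG. These sums rest on TMM scaling and on merged exon length. Library size alone moved the median of all tested genes from 0.00179 to 0.181, and the sums were not computed with it. Nor were they computed by principal transcript. That length puts DNAJB6 of class B at 39.8 RPKM in quiescent and 60.9 RPKM in young cells, against 4.27 and 6.54 RPKM by merged exons. The sizes of these 4 smaller falls thus depend on the scaling and on the length used. As shares of the members' total, HSP70 and HSP110 made up 22.7% in quiescent and 20.4% in young cells. HSP90 made up 19.7% in quiescent and 21.9% in young cells, and small heat shock proteins 8.90% in quiescent and 11.1% in young cells.

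**Figure D2:**
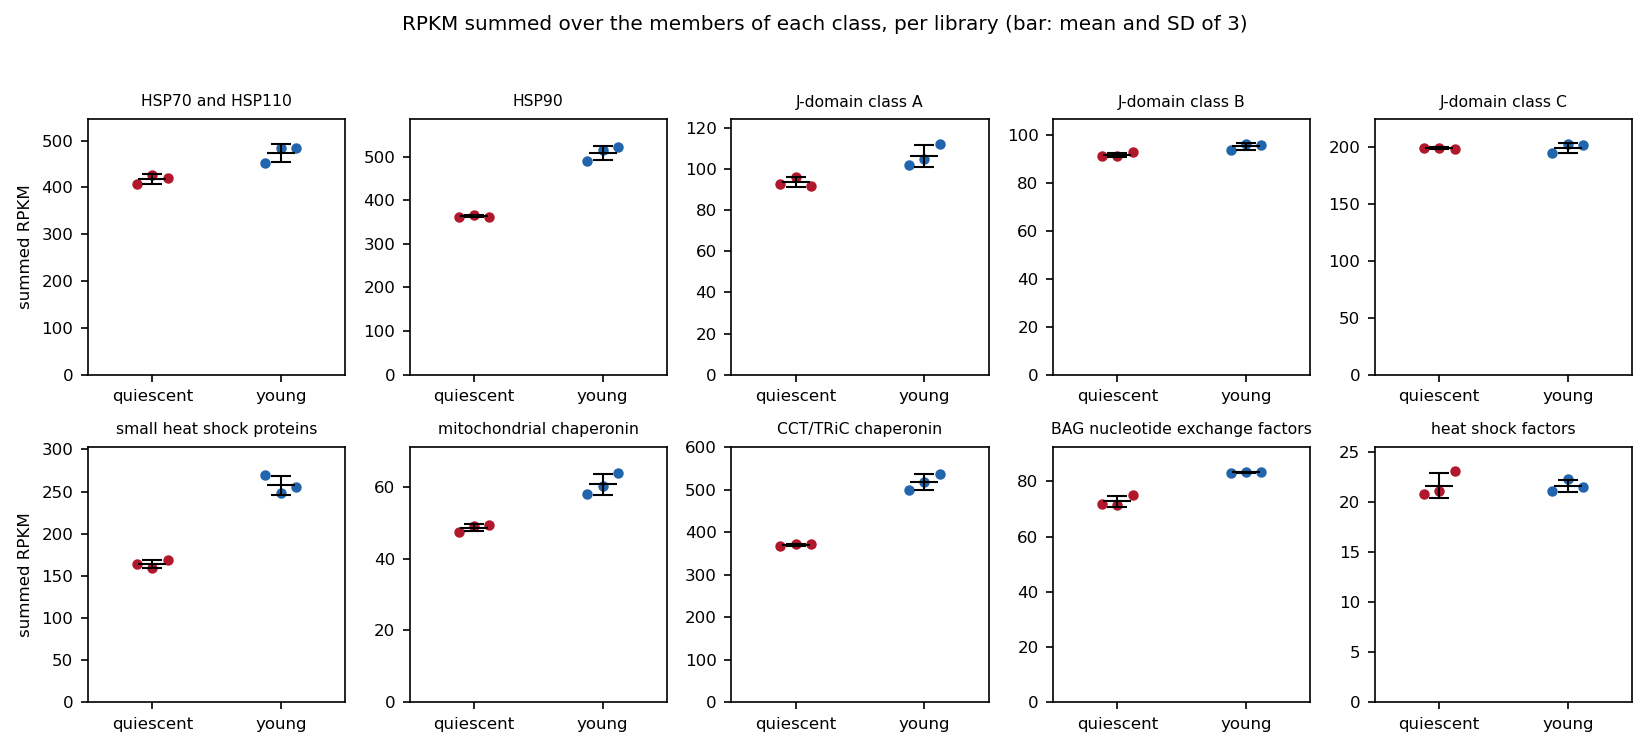
Summed RPKM of each chaperone class (each panel has its own axis, starting at 0) in the 3 quiescent and 3 young libraries, with the mean and SD. The quiescent points of HSP90, near 363, CCT/TRiC, near 370, and the small heat shock proteins, near 164, lie below all young points, and the points of class C and the heat shock factors overlap.

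The HSP70 family split by gene. HSPA8 (HSC70, the constitutive cytosolic HSP70; ENSG00000109971, chromosome 11 from 123057489 to 123063230 on GRCh38) was 1 of the most abundant members per length, with HSP90AB1. It had 1090, 1140 and 1130 CPM in quiescent libraries, against 1390, 1510 and 1520 CPM in young libraries. Every quiescent value was below every young one, and the gene fell by 0.39 ± 0.04 (SE) in log2, or 23.9% (adjusted p = 6.04e-09). HSPA9 (mortalin, the HSP70 of the mitochondrial matrix and the motor of protein import; ENSG00000113013, chromosome 5 from 138553756 to 138575724) went the other way. It had 486, 515 and 507 CPM in quiescent libraries, against 380, 395 and 405 CPM in young libraries. The groups did not overlap, and HSPA9 rose by 0.35 ± 0.04 in log2 (adjusted p = 1.76e-08). The level of HSPA9 relative to HSPA8, as a ratio of CPM, was 0.449 ± 0.00105 in quiescent and 0.267 ± 0.00565 in young cells (SD, n = 3 each; exact permutation p = 0.1, the smallest possible). HSPA9 rose and HSPA8 fell without overlap, so their ratio had to separate the groups and its p adds nothing.

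HSPH1 (HSP105), an HSP110 protein that exchanges the nucleotide of HSP70 and can be induced by heat, had 235, 246 and 243 CPM in quiescent libraries, against 199, 215 and 207 CPM in young libraries. It was higher without overlap, by 0.22 ± 0.04 in log2 (adjusted p = 2.66e-05). Its closest relative HSPA4 (APG-2) had 257, 260 and 253 CPM in quiescent libraries, against 267, 276 and 276 CPM in young libraries. The groups of HSPA4 lay side by side, and the difference of -0.09 ± 0.04 passed narrowly (adjusted p = 0.0374). That call is fragile, since it was lost when quiescent library 1, 2 or 3 or young library 1.1 or 1.2 was left out (adjusted p of 0.0444 to 0.21 over the 6 omissions), and also with upper-quartile factors and with the stricter filter (adjusted p of 0.656 and 0.0974). With library size alone HSPA4 passed as higher, at 0.0898 (adjusted p = 0.0332). HSPA4L, the remaining HSP110 gene, rose by 0.28 ± 0.07 (adjusted p = 0.000618).

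HSPA2, an HSP70 best known from male germ cells, showed the largest fall of the family. It had 32.7, 34.7 and 33.9 CPM in quiescent libraries, against 53.0, 54.2 and 51.7 CPM in young libraries. All quiescent values were below all young ones, with -0.65 ± 0.05 in log2 (adjusted p = 6.42e-12). HSPA12A, a divergent relative, fell by 0.47 ± 0.06, and HSPA13 and HSPA14, an HSP70 of the endoplasmic reticulum and one bound to ribosomes, rose by 0.31 ± 0.04 and 0.18 ± 0.06. In all, 5 of the 9 tested HSP70 and HSP110 genes rose (55.6%) and 4 fell (44.4%), with a median of 0.18. Over all tested genes 34.8% rose and 36.3% fell, so movement in both directions was common to genes at large.

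The heat-inducible HSP70 genes HSPA1A, HSPA1B and HSPA6 had few or no counted reads. HSPA1A had no read in any quiescent library and 1 read in young libraries, and HSPA1B had none in any of the 6. These 2 genes are near-identical neighbours on chromosome 6: 71.3% of the 50-base stretches of HSPA1A transcripts also occur in HSPA1B, and 73.5% of those of HSPA1B occur in another gene. How reads with several matches were counted is not given in the sources used here, so these counts do not give their level. HSPA6 (HSP70B'), which shares 45.5% of its stretches with HSPA7, had 26 reads in quiescent and 28 reads in young libraries and was not tested. HSPA1L and HSPA12B were also too low, with 2 and 8 reads in quiescent libraries and 5 and 28 reads in young libraries.

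Both cytosolic HSP90 genes were lower. HSP90AB1 (HSP90 beta, the constitutive form; ENSG00000096384, chromosome 6 from 44246166 to 44253888) had 659, 673 and 661 CPM in quiescent libraries, against 912, 959 and 966 CPM in young libraries. HSP90AA1 (HSP90 alpha, the inducible form; ENSG00000080824, chromosome 14 from 102080738 to 102139699) had 734, 735 and 736 CPM in quiescent libraries, against 964, 1010 and 1030 CPM in young libraries. Neither gene overlapped between groups. The log2 fold changes were -0.51 ± 0.04 for HSP90AB1 (adjusted p = 1.1e-11) and -0.45 ± 0.04 for HSP90AA1 (adjusted p = 1.6e-10). Their ratio in CPM, alpha over beta, was 1.11 ± 0.0125 in quiescent and 1.06 ± 0.00821 in young cells (SD, n = 3 each; exact permutation p = 0.1, the smallest possible). That ratio is not corrected for length. Per length of merged exons alpha stood below beta, with a ratio of 0.62 to 0.633 in quiescent and 0.597 to 0.606 in young libraries. By principal transcript the ratio was 0.864 to 0.882 in quiescent and 0.832 to 0.845 in young libraries. Both genes have copies elsewhere: 7.97% of the 50-base stretches of HSP90AA1 occur in HSP90AA2P, and 13.8% of those of HSP90AB1 in HSP90AB3P.

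J-domain proteins, which choose the clients of HSP70, moved in both directions: of 36 tested, 12 fell, 10 rose and 14 did not pass, with a median of -0.04. These shares, 33.3% lower and 27.8% higher, were no larger than the 36.3% and 34.8% over all tested genes. The 12 that fell include DNAJC5B, which was tested only through its young libraries. In class A, DNAJA1, the most abundant J-domain gene per length and a partner of HSPA8, had 203, 208 and 200 CPM in quiescent libraries, against 223, 234 and 252 CPM in young libraries. It was lower without overlap (-0.22 ± 0.04, adjusted p = 9.76e-05), but with library size alone the value was -0.036 and did not pass. DNAJA2, another general partner of HSPA8, had 84.2, 91.2 and 83.0 CPM in quiescent libraries, against 91.5, 87.7 and 90.4 CPM in young libraries, and the groups overlapped (-0.06 ± 0.04, adjusted p = 0.231), while library size alone put DNAJA2 at 0.12, which passed.

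In class B, DNAJB1 (HSP40), the partner of HSP70 in the heat shock response and in disaggregation, did not pass the test. It had 129, 128 and 129 CPM in quiescent libraries, against 125, 133 and 130 CPM in young libraries. The log2 difference was -0.0035 ± 0.04 (adjusted p = 0.943). The sign of that difference turned with several other settings, and with library size alone DNAJB1 was at 0.18 and passed. DNAJB2, a J-domain protein known from neurons, also overlapped, with 97.1, 99.0 and 104 CPM in quiescent libraries, against 100, 99.5 and 96.2 CPM in young libraries (0.02 ± 0.04, adjusted p = 0.647), though it passed at 0.20 with library size alone and at 0.09 with upper-quartile factors.

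DNAJB6, which keeps polyglutamine proteins from aggregating, showed the largest fall of class B. It had 63.9, 64.5 and 63.5 CPM in quiescent libraries, against 101, 95.9 and 97.2 CPM in young libraries, without overlap (-0.61 ± 0.04, adjusted p = 1.11e-12). DNAJB5 and DNAJB4 fell by 0.51 ± 0.06 and 0.29 ± 0.05. DNAJB12, a membrane protein of the endoplasmic reticulum that helps remove misfolded membrane proteins, had 67.0, 69.2 and 68.0 CPM in quiescent libraries, against 55.2, 53.4 and 54.2 CPM in young libraries. It rose by 0.33 ± 0.04 (adjusted p = 2.18e-07), and its relative DNAJB14 rose by 0.23 ± 0.04.

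Class C holds J-domain proteins with specialised tasks, and 8 of 25 tested rose, 8 fell and 9 did not pass. Each share was 32.0%, where 34.8% of all tested genes rose and 36.3% fell. The 8 that fell include DNAJC5B, whose call supports nothing, as described below. The most abundant per length of merged exons were DNAJC8, a splicing-associated protein, and DNAJC13 (RME-8), which works on endosomes, while by principal transcript DNAJC7 stood above DNAJC13 in young cells. DNAJC8 had 100, 108 and 101 CPM in quiescent libraries, against 112, 120 and 129 CPM in young libraries (-0.22 ± 0.05, adjusted p = 0.000276), a call that library size alone did not give. DNAJC13 had 296, 288 and 283 CPM in quiescent libraries, against 225, 239 and 209 CPM in young libraries, and was higher without overlap (0.37 ± 0.04, adjusted p = 5.97e-08). DNAJC27, a Rab-like GTPase with a J domain, showed the largest rise, with 10.8, 10.4 and 9.27 CPM in quiescent libraries, against 5.39, 5.95 and 4.88 CPM in young libraries (0.91 ± 0.10, adjusted p = 9.35e-09). DNAJC5B, a relative of the cysteine string protein, was barely present. It entered the test only through its young libraries, so its fold change was bound to be negative and supports nothing. It had 9 reads in the quiescent and 77 reads in the young libraries together (0.145, 0.168 and 0.101 CPM in quiescent, against 1.22, 1.11 and 0.574 CPM in young libraries; -2.74 ± 0.43). The cysteine string protein itself, DNAJC5, was far more abundant and fell by 0.40 ± 0.04.

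Of 7 tested small heat shock proteins 5 fell, 1 rose and 1 did not pass, with a median of -0.47, where 36.3% of all tested genes fell and 34.8% rose. One of the 5, HSPB3, was tested only through its young libraries. HSPB1 (HSP27, which also binds actin filaments; ENSG00000106211, chromosome 7 from 76302544 to 76304295) had 183, 176 and 192 CPM in quiescent libraries, against 319, 288 and 305 CPM in young libraries. The groups were far apart, and HSPB1 fell by 0.73 ± 0.04 in log2, or 39.5% (adjusted p = 8.95e-14). HSPB6 (HSP20, first known from smooth muscle) had 54.5, 52.8 and 51.1 CPM in quiescent libraries, against 96.2, 89.0 and 82.4 CPM in young libraries. It was lower without overlap (-0.76 ± 0.05, adjusted p = 3.96e-12), but 38.2% of its exon bases overlap a gene on the opposite strand, AC002398.2, and the library kit does not mark strand.

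HSPB8 (HSP22, which works with BAG3 in the removal of damaged proteins by autophagy) was the only small heat shock protein that rose. It had 35.1, 35.7 and 38.5 CPM in quiescent libraries, against 24.3, 26.5 and 24.9 CPM in young libraries (0.53 ± 0.06, adjusted p = 7.18e-09). HSPB3, a muscle protein, was close to the limit of counting, with 18 reads in the quiescent and 98 reads in the young libraries. Its levels were 0.145, 0.503 and 0.151 CPM in quiescent libraries, against 1.30, 1.11 and 1.26 CPM in young libraries, with a log2 fold change of -2.11 ± 0.35. Most of its quiescent reads were in library 2, without which the value was -3.00, and over the 6 omissions it ranged up to -1.82. HSPB7, known from heart muscle, fell by 0.40 ± 0.09. HSPB11, a subunit of ciliary transport despite its name, fell by 0.26 ± 0.07, a call that library size alone did not give.

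The mitochondrial chaperonin was lower while the mitochondrial HSP70 was higher. HSPD1 (HSP60; ENSG00000144381, chromosome 2 from 197486581 to 197516737) had 181, 190 and 187 CPM in quiescent libraries, against 222, 231 and 242 CPM in young libraries. It fell by 0.32 ± 0.04 without overlap (adjusted p = 1.98e-07). HSPE1 (HSP10, the lid) had 9.30, 8.47 and 10.4 CPM in quiescent libraries, against 11.4, 11.6 and 13.3 CPM in young libraries (-0.37 ± 0.09, adjusted p = 0.000625), and 22.7% of its 50-base stretches are shared with other genes. With library size alone HSPE1 did not pass. Per length of merged exons HSPD1 stood 8.37 to 10.5 times above HSPE1 in quiescent and 8.47 to 9.27 times in young libraries. By principal transcript it was 6.96 to 8.7 times in quiescent and 7.04 to 7.7 times in young libraries. The ranges overlapped with either length. How reads with several matches were counted is not given, so the size of this ratio is uncertain. The ratio of HSPA9 to HSPD1 in CPM was 2.70 ± 0.0164 in quiescent and 1.70 ± 0.0215 in young cells (SD, n = 3 each; exact permutation p = 0.1, the smallest possible). HSPA9 rose and HSPD1 fell without overlap, so this p too was fixed by the single genes and adds nothing.

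**Figure D3:**
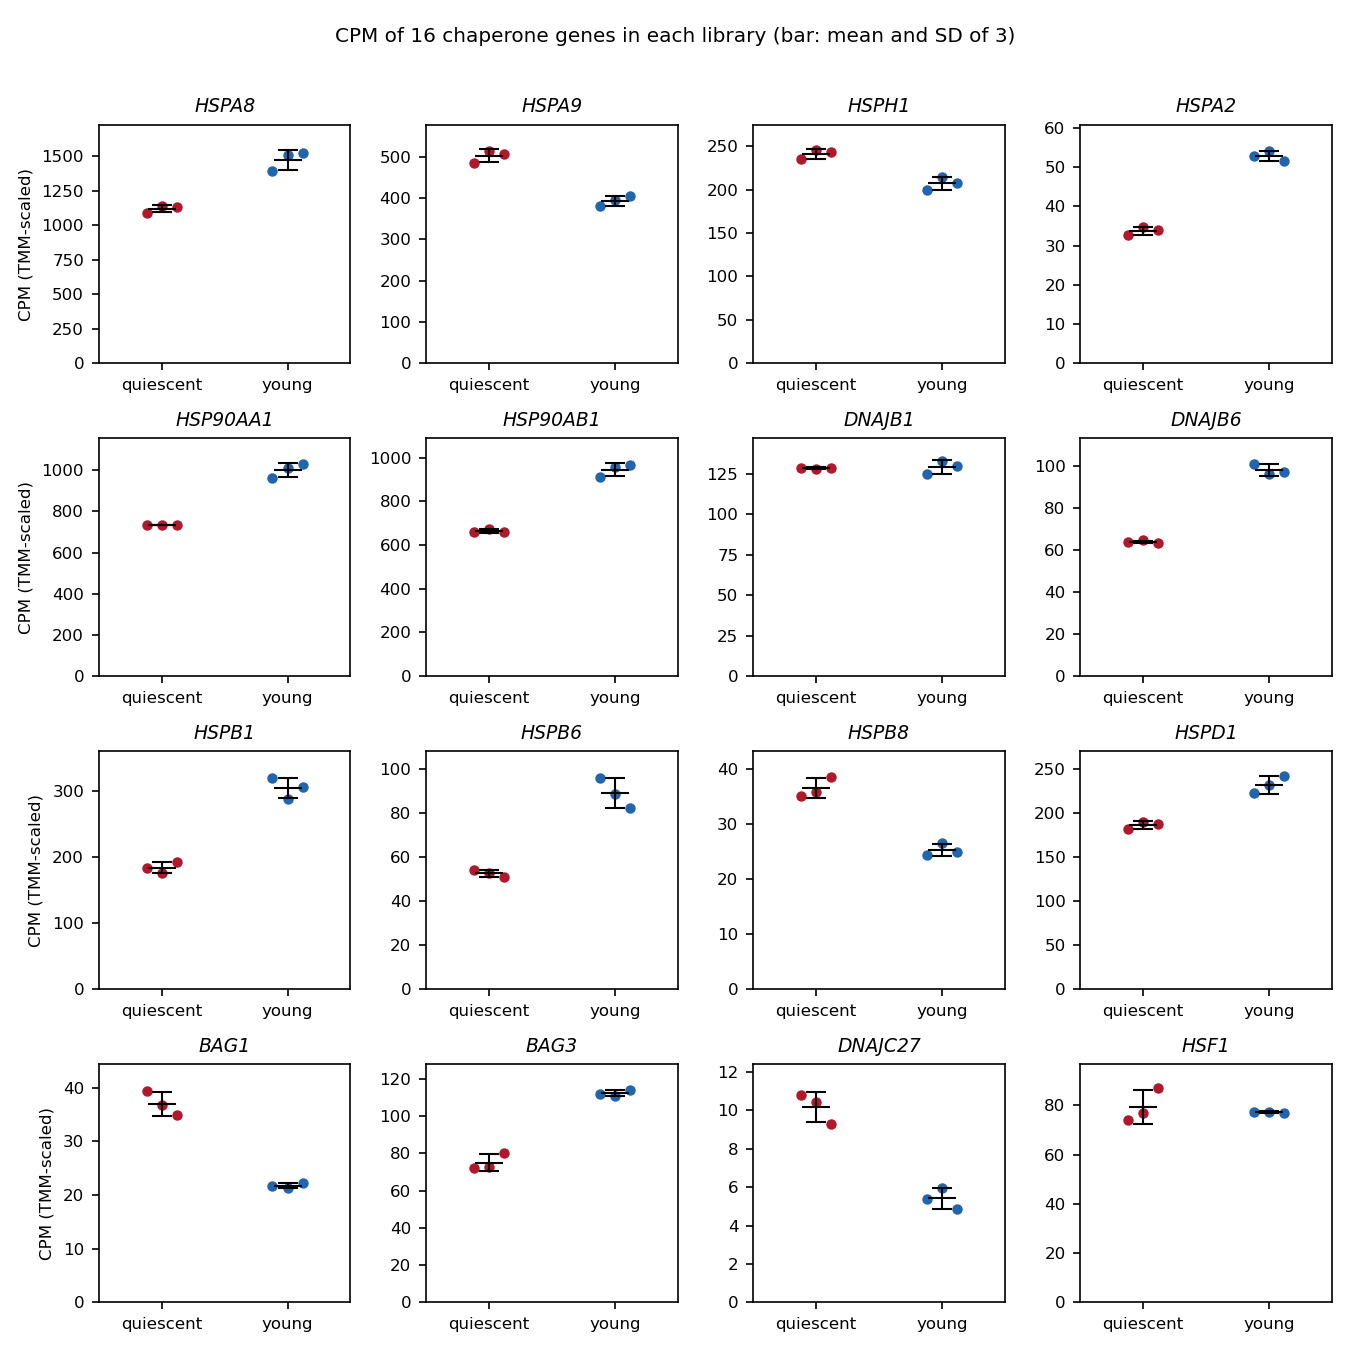
CPM of 16 chaperone genes (each panel has its own axis, starting at 0) in the 3 quiescent and 3 young libraries, with the mean and SD. HSPA9, HSPH1, HSPB8, BAG1 and DNAJC27 are higher in every quiescent library than in any young one, DNAJB1 (means of 129 and 129 CPM) and HSF1 overlap, and in the other panels every quiescent point is below every young one.

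All 8 subunits of the CCT/TRiC ring, which folds actin and tubulin, were lower in quiescent cells, by 0.32 to 0.62 in log2 with a median of -0.52, where 36.3% of all tested genes fell. CCT2 fell most. It had 160, 161 and 159 CPM in quiescent libraries, against 240, 236 and 260 CPM in young libraries (-0.62 ± 0.04, adjusted p = 9.48e-13). CCT7 had 201, 200 and 205 CPM in quiescent libraries, against 288, 303 and 312 CPM in young libraries (-0.57 ± 0.04, adjusted p = 1.97e-12). CCT4 had 171, 173 and 176 CPM in quiescent libraries, against 225, 228 and 233 CPM in young libraries (-0.40 ± 0.04, adjusted p = 8.81e-10). The quiescent libraries lay close together and below every young one in these 3 genes, as in the other ring subunits. CCT3 fell by 0.62, CCT5 by 0.53, CCT8 by 0.50, CCT6A by 0.32 and TCP1 by 0.32. All 8 calls held under every alternative tried, including library size alone, and the fold change of least size over these was -0.14.

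**Figure D4:**
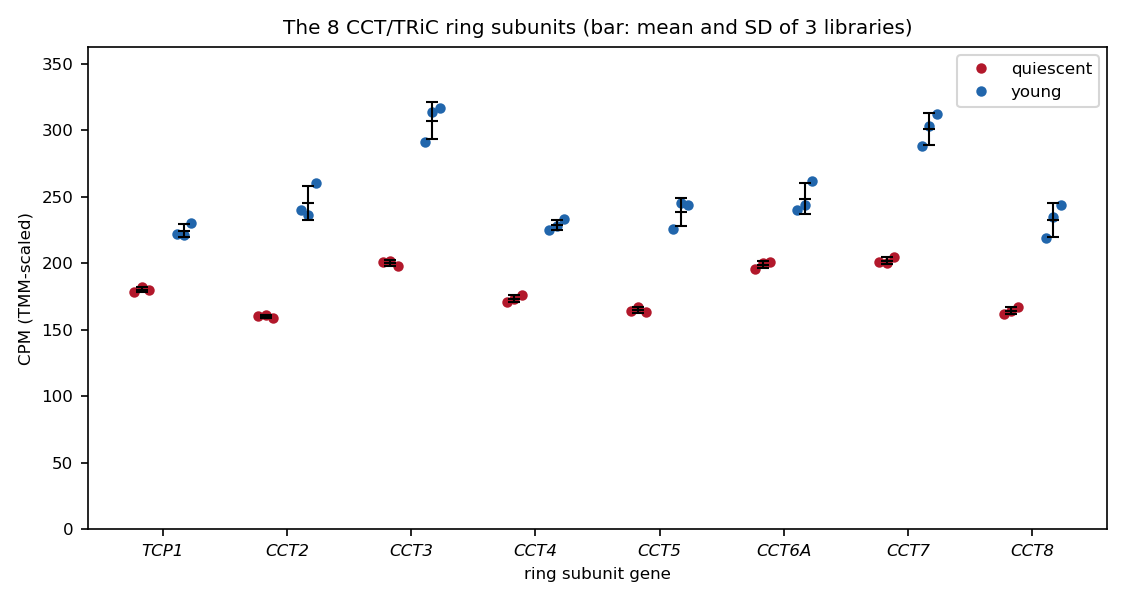
CPM of the 8 CCT/TRiC ring subunit genes in the 3 quiescent and 3 young libraries (quiescent left of young at each gene), with the mean and SD. For each subunit every quiescent point is below every young one, with quiescent means from 160 CPM (CCT2) to 202 CPM (CCT7).

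The ring takes 1 copy of each subunit per layer, and the 8 transcripts differed among themselves. Per length the most abundant subunit stood 2.13 to 2.22 times above the least abundant, CCT5, in quiescent and 2.01 to 2.08 times in young libraries. With the length of the principal transcript in place of all exons this was 2.30 to 2.41 times in quiescent and 2.37 to 2.45 times in young libraries, so the order of the groups depends on the length used. For CCT5, 30.1% of exon bases overlap AC012640.4 on the other strand. CCT6B, a variant of CCT6A known from testis, was scarce and went the other way. It had 5.18, 4.40 and 3.43 CPM in quiescent libraries, against 1.89, 2.18 and 2.05 CPM in young libraries, and rose 2.13-fold (1.09 ± 0.16, adjusted p = 1.17e-06).

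BAG proteins, which release clients from HSP70, divided evenly: BAG1, BAG5 and BAG6 rose, and BAG2, BAG3 and BAG4 fell. All tested genes divided nearly evenly too, with 34.8% higher and 36.3% lower. BAG1, which links HSP70 to the proteasome, had 39.4, 36.7 and 35.0 CPM in quiescent libraries, against 21.6, 21.3 and 22.3 CPM in young libraries. It rose by 0.77 ± 0.06 without overlap (adjusted p = 7.46e-12). BAG3, which directs clients to autophagy and is a target of HSF1, had 72.4, 72.5 and 80.2 CPM in quiescent libraries, against 112, 111 and 114 CPM in young libraries. It fell by 0.58 ± 0.04 (adjusted p = 1.09e-11). BAG6, which guards hydrophobic proteins on their way to membranes, had 86.7, 87.8 and 92.5 CPM in quiescent libraries, against 77.2, 77.9 and 75.3 CPM in young libraries (0.21 ± 0.04, adjusted p = 8.11e-05). The ratio of BAG1 to BAG3 in CPM was 0.495 ± 0.0545 in quiescent and 0.194 ± 0.00233 in young cells (SD, n = 3 each; exact permutation p = 0.1, the smallest possible). BAG1 rose and BAG3 fell without overlap, so their ratio had to separate the groups and its p adds nothing. BAG2, which slows the ligase CHIP, fell by 0.22 ± 0.04, but 44.2% of its exon bases overlap RAB23 on the opposite strand, and neither BAG2 nor BAG4 (-0.20 ± 0.06) passed with library size alone.

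Neither heat shock factor passed the test. HSF1 had 74.1, 76.7 and 87.1 CPM in quiescent libraries, against 77.4, 77.3 and 76.7 CPM in young libraries. Quiescent library 3 was above all others and the groups overlapped (0.04 ± 0.05, adjusted p = 0.486), though HSF1 passed at 0.22 with library size alone and at 0.11 with upper-quartile factors. HSF2, which acts together with HSF1 and in development, had 18.5, 18.0 and 17.9 CPM in quiescent libraries, against 17.7, 20.9 and 18.9 CPM in young libraries (-0.08 ± 0.07, adjusted p = 0.306).

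Of the 7 members whose promoter sequences are printed above, the 6 that could be tested were all lower in quiescent cells, by 0.22 in DNAJA1 to 0.61 in DNAJB6. By call, the full element stood in 6 of 31 lower members with a promoter, in 0 of 18 higher and 0 of 14 not called, and in HSPA6 among the 12 not tested. Beyond the chaperones, 47 tested genes held the element in their promoter. Of these 21 fell (44.7%) and 14 rose (29.8%), with a median of -0.16, while 38.9% of the 10673 tested genes with a promoter fell and 34.8% rose. HSPH1, DNAJB1, HSPB1 and BAG3, also known to respond to heat, held no full element in these windows, which says only that the letters were not in them.

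**Figure D5:**
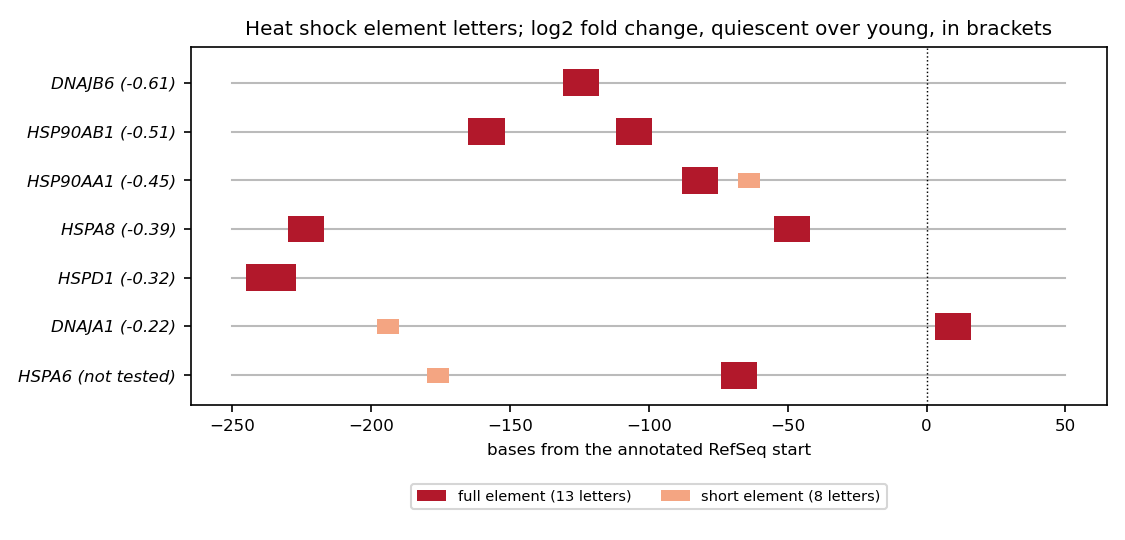
Positions of the full (13 letters) and further short (8 letters) heat shock elements in the promoters of the 7 members that hold a full one, in bases from the annotated RefSeq start, with the log2 fold change, quiescent over young, in brackets. HSP90AB1 and HSPA8 hold 2 separate full elements, and the 6 tested genes have fold changes of -0.61 to -0.22.

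Other genes of the folding pathway, 43 listed as partners of these chaperones, also moved in both directions: of 41 tested, 21 fell, 10 rose and 10 did not pass, with a median of -0.25, where 36.3% of all tested genes fell and 34.8% rose. Among cytosolic partners of HSP90, STIP1 (HOP, which passes clients over from HSP70) fell by 0.69 ± 0.04, CDC37 (which brings kinases) by 0.68 ± 0.04 and FKBP4 (which serves steroid receptors) by 0.68 ± 0.05. Lower by less were AHSA1 at -0.25 ± 0.04, FKBP5 at -0.26 ± 0.07 and UNC45A at -0.32 ± 0.04. Others rose, with ST13 (HIP, a partner of HSP70) at 0.36 ± 0.04, AHSA2P at 0.53 ± 0.05 and the cyclophilin PPID at 0.16 ± 0.05. PTGES3 (p23), CHORDC1 and SUGT1 did not pass, at -0.03 ± 0.04, -0.02 ± 0.05 and -0.03 ± 0.05. Of the 6 prefoldin subunits, which deliver actin and tubulin to CCT/TRiC, PFDN1, PFDN2, VBP1 and PFDN6 fell, and PFDN4 and PFDN5 did not pass (0.05 ± 0.06 and -0.0065 ± 0.05). In mitochondria, TRAP1, the HSP90 of the matrix, fell by 0.49 ± 0.05, the protease LONP1 rose by 0.45 ± 0.04, and the exchange factors of HSPA9 moved apart, GRPEL1 falling by 0.44 ± 0.05 and GRPEL2 rising by 0.43 ± 0.07.

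The largest falls of that list were SERPINH1 (HSP47, the collagen chaperone), with 517, 533 and 549 CPM in quiescent libraries, against 1140, 1160 and 1200 CPM in young libraries (-1.13 ± 0.04, adjusted p = 1.08e-18), and the disaggregase CLPB. CLPB had 10.5, 11.2 and 9.68 CPM in quiescent libraries, against 19.5, 19.1 and 18.7 CPM in young libraries (-0.87 ± 0.07, adjusted p = 6.64e-11). The largest rises were HSF4, a heat shock factor known from the lens, and HSPBAP1, a binding partner of HSPB1. HSF4 had 8.14, 8.51 and 8.47 CPM in quiescent libraries, against 3.46, 2.74 and 3.01 CPM in young libraries (1.45 ± 0.11, adjusted p = 1.68e-11). HSPBAP1 had 15.2, 15.3 and 14.6 CPM in quiescent libraries, against 7.95, 8.36 and 8.29 CPM in young libraries (0.87 ± 0.08, adjusted p = 1.61e-10). None of these 4 genes overlapped between groups, but they were picked as the largest changes of the list. Over all tested genes the groups did not overlap in 36.4% with quiescent higher and in 37.1% with quiescent lower.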

How the data were processed

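Per the labels' protocols, libraries came from total RNA by a TruSeq v2 kit, which does not mark strand. The submitters' processing notes name featureCounts 1.4.6-p4, STAR 2.4.1d, bcl2fastq 1.8.4 and the build GRCh38. The authors deposited raw read counts per gene, not normalized, and RPKM values of the same libraries. Read length, strand setting and how multiply mapped reads were treated are not given in the sources used. The quiescent columns carry their samples' titles, and the young columns share a name that ties them to the young group but not to single samples.

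The deposited RPKM values were not used as levels. For about 89.4% of 4031 genes with over 1000 reads, dividing counts by RPKM and exon length gave read totals that repeat down the rows with a period of 14 (quiescent) or 15 (young) between 18661599 and 41540638, instead of staying at the library's own total. Over 70 members this would shift the log2 difference by -0.74 to 0.33 and turn the sign of 14. RPKM was computed instead from the counts, TMM-scaled totals and merged exon lengths.

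The counts entered edgeR 4.0.16 under R 4.3.3 (filterByExpr, TMM factors, robust quasi-likelihood fit, group as the only term), with Benjamini-Hochberg adjustment over all 15568 genes kept. Unless another test is named, each adjusted p is from this fit. Symbols and coordinates are from GENCODE 29, in which all members were matched by gene ID. The scripts were tested on simulated data. Alternatives were scaling by upper-quartile factors, by library size alone or by DESeq2 size factors, dropping the low-count filter or asking for 1 CPM in 3 or more libraries, the Wald test of DESeq2 1.42.0, voom of limma 3.58.1, limma on log2(RPKM + 1) and log2(RPKM + 0.1) computed from counts, and omission of each library in turn. The limma fits on the deposited RPKM were replaced by these after the fault was seen.

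Values in every library are given for the 2 members of each class with the highest mean RPKM, the largest called change in each direction, and HSPA1A, HSPA1B, HSPA4, HSPA9, HSPH1, DNAJB1, BAG3, HSF1 and HSF2. Of the other folding genes, the 2 largest called changes in each direction are given so, and further genes were named after their values were seen. The ratios of CPM between 2 genes were not planned. The members and lists were chosen with earlier results of these data known. The floor of 3 reads covers counting error only.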

Additional observations from a re-analysis of the deposited data

How the results depend on the processing

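Of the 73 tested members, 46 were tested under all alternatives and kept their direction and their side of the threshold, among them 19 of the 20 that rose and 26 of the 36 that fell. DNAJC5B and HSPB2 could not be tested under the stricter filter, nor HSPB2 with any 1 young library left out. With library size alone 31 members were higher and 27 lower and their median was -0.0174, and with upper-quartile factors 22 were higher and 32 lower and the median was -0.126. The median was -0.118 with the stricter filter of 1 CPM in 3 or more libraries and -0.0932 on log2(RPKM + 1), and -0.169 to -0.103 with 1 library left out, with 19 to 20 higher and 33 to 36 lower. The cause was not tested. Directions turned in members whose difference was small. With library size alone HSPA4 was at 0.0898, HSF2 at 0.1009, DNAJC2 at 0.1502, DNAJC12 at 0.0416, DNAJC14 at 0.1248, DNAJA3 at 0.1133, DNAJA2 at 0.1199, DNAJC7 at 0.0725 and DNAJB1 at 0.1764. With upper-quartile factors DNAJC2 was at 0.0417, DNAJC14 at 0.0158, DNAJA3 at 0.0046, DNAJA2 at 0.0115 and DNAJB1 at 0.0677, and with the stricter filter DNAJB1 was at 0.0181. With 1 library left out, DNAJB1 ranged from -0.019 to 0.0178, DNAJC12 from -0.3421 to 0.0069, HSF1 from -0.0176 to 0.0875, DNAJC17 from -0.0437 to 0.1226, DNAJC14 from -0.1046 to 0.044 and DNAJC2 from -0.0471 to 0.0046. Leaving out quiescent library 2 or 3 or young library 1.1 or 1.2 turned at least 1 of these. No paired analysis was possible because the young columns carry no replicate number that ties them to a sample. Both groups of 3 limit every exact test to a p of 0.1, and genes with few reads, such as HSPB3 and DNAJC5B, have wide errors.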

Other observations

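Sorted by the compartment in which their proteins are usually placed, a grouping made after the values were seen and given without a test, the members differed in the direction they took. Of 9 members of the endoplasmic reticulum, 7 rose, none fell and 2 did not pass, with a median log2 fold change, quiescent over young, of 0.25, where 34.8% of all tested genes rose. The 7 were HSPA13, DNAJB12, DNAJB14, DNAJC1, DNAJC10, DNAJC16 and DNAJC18. DNAJC10 (ERdj5), a reductase of misfolded proteins, averaged 271 CPM in quiescent and 241 CPM in young cells (0.17 ± 0.04, adjusted p = 0.000467 by edgeR's quasi-likelihood test). DNAJC1, a membrane protein near the translocon, averaged 40.5 CPM in quiescent and 29.3 CPM in young cells (0.46 ± 0.05, adjusted p = 3e-08). The 4 genes of that compartment that the choice by name left out all fell. HSPA5 (BiP), its HSP70, averaged 1280 CPM in quiescent and 4000 CPM in young cells (-1.64 ± 0.04, adjusted p = 1.59e-21). DNAJB11 fell by 1.26 ± 0.04, DNAJC3 by 0.91 ± 0.04 and DNAJB9 by 0.16 ± 0.05.

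Of 8 mitochondrial members, 4 fell and 2 rose, with a median of -0.18, where 36.3% of all tested genes fell and 34.8% rose. Besides HSPD1 and HSPE1, DNAJC15, a J-domain protein of the inner membrane, fell by 0.47 ± 0.06 and DNAJC11, which is tied to the cristae, by 0.30 ± 0.05, though 27.9% of the exon bases of DNAJC11 overlap THAP3 on the opposite strand. DNAJC19, a relative of the yeast import motor subunit Pam18, rose by 0.41 ± 0.09 (adjusted p = 0.000153 by the same test), averaging 13.8 CPM in quiescent and 10.3 CPM in young cells. Of the J-domain genes of ribosomes, DNAJC21 rose by 0.13 ± 0.05, a call that was lost without quiescent library 2 or young library 1.0, and DNAJC2 did not pass (-0.03 ± 0.05).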
